A study of Mus musculus with 22 samples.

Results

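MC38 is a mouse cell line from a chemically induced colon adenocarcinoma, and the question here was which genes of the colon epithelium, and of epithelia in general, its cells expressed in culture and as tumors under the skin. The genes followed were 10 of the 46882 listed. They were chosen by name as Cdh1, Epcam, Cdx1, Cdx2, Hnf4a, Vil1, Lgr5, Ascl2, Axin2 and Muc2, not from their values. RNA was measured by QuantSeq 3′ mRNA sequencing, which yields reads near the 3′ end of each transcript, so that levels do not scale with transcript length. The table used held 16 libraries. Of these, 2 were MC38 cells of C57BL/6N background at day 0 and 2 were skin of wild-type C57BL/6N mice labelled day 23. The remaining 12 were tumors grown from MC38 cells injected subcutaneously, 3 each from wild-type C57BL/6N mice at day 23 and day 46, and 3 each from mice labelled RAG1-/- (B6.129S7-Rag1tm1Mom/J) at day 13 and day 23. Mice were 8 to 12 weeks old and all tumors came from this 1 cell line. The labels do not say whether the MC38 samples were separate cultures, so p-values measure the spread between these samples, which may be technical. Skin is an epithelial tissue and no normal colon was analysed here, so a level in MC38 could be set against skin but not against the tissue of origin.

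The colon is lined by a single layer of epithelial cells that are renewed from stem cells at the crypt base under Wnt signaling. Cdx1, Cdx2 and Hnf4a are transcription factors that keep intestinal identity. The progeny of the stem cells become absorptive colonocytes with a brush border, goblet cells that secrete mucus, or hormone-secreting cells. E-cadherin (Cdh1) and Epcam are adhesion proteins of epithelial cells, and neither is confined to the colon.

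Libraries held 5589151 to 26134241 reads on genes, so that 3 reads, taken as the floor, amounted to 1.33 to 6.38 normalized counts depending on the library. Such floors cover counting error only. Skin carried its defining genes, with 15 of 15 keratinocyte markers above 5 normalized counts in both libraries and a summed level of 477016 to 479887, and it also held muscle (7 of 7 markers, summed 94172 to 142615). In MC38 cells 2 of the 15 keratinocyte markers (Krt10 and Sfn) were above 5, and the 12 leukocyte markers summed to 9.41 to 20.5. Rag1 was read in 6 of 6 tumors labelled RAG1-/- (at most 12 reads) and in 1 of 6 wild-type tumors (1 read). A 3′ tag does not test a deletion elsewhere in the gene, so these reads do not check the genotype. Cd8a went with the labels, at 5.86 to 79.7 normalized counts in wild-type tumors and 0 to 0.442 in tumors labelled RAG1-/-. So did Igkc, at 50.7 to 287 and 0 to 1.77.

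In MC38 cells 1 of the 10 genes, Axin2, was above 5 normalized counts in both libraries. Of all listed genes 26.7% passed this level. Axin2, a Wnt target whose protein restrains the pathway, stood at 6.84 and 8.80 normalized counts, from 8 and 9 reads, higher than 2.08% of the 12514 genes above 5 in both MC38 libraries. It therefore lay near the bottom of the expressed genes. In skin 5 of the 10 were above 5 in both libraries (Cdh1, Epcam, Lgr5, Ascl2 and Axin2), beside 34.3% of all listed genes. In all 12 tumors 2 of the 10 were (Cdh1 and Axin2), beside 26.0% of all listed genes. At a level of 1 normalized count 2 of the 10 (Lgr5 and Axin2) passed in both MC38 libraries, and at a level of 10 none did.

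**Figure D1:**
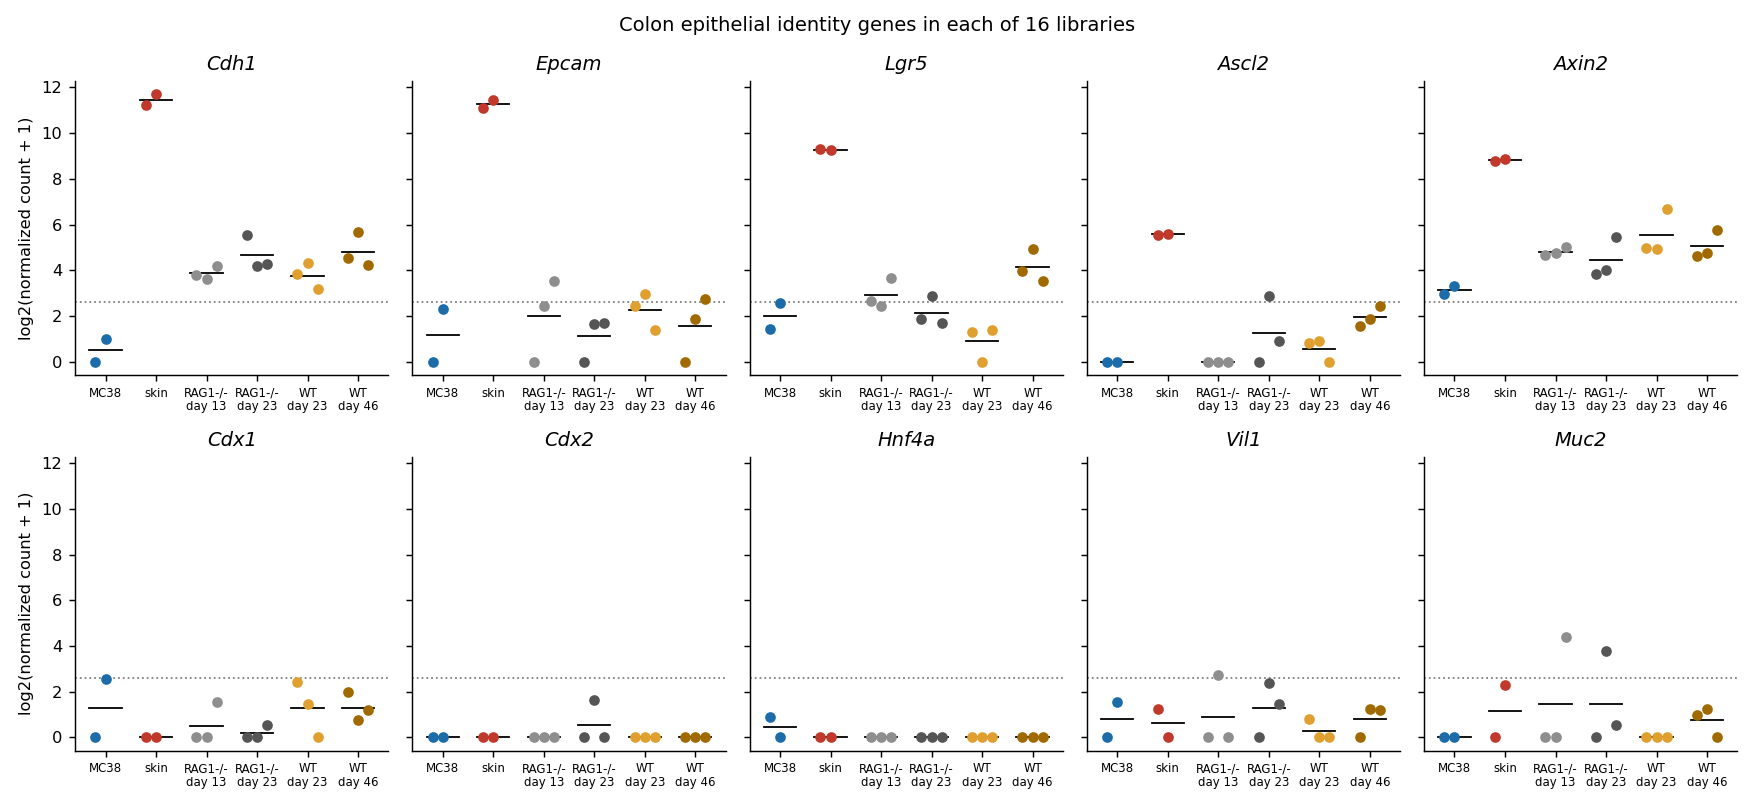
Normalized counts of the 10 genes on the scale log2(normalized count + 1) in each of 16 libraries, with 1 point per library, a bar at the group mean of that scale and a dotted line at 5 normalized counts. Cdh1, Epcam, Lgr5, Ascl2 and Axin2 stand high in skin, Axin2 alone lies above the line in both MC38 libraries, and the 5 genes of the lower row lie near 0 in most libraries.

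The adhesion genes were at or near 0 in MC38 cells. Cdh1, which encodes the cadherin of epithelial adherens junctions, had 0 and 0.978 normalized counts in the MC38 libraries (0 and 1 read) and 2392 and 3320 in skin. Epcam, an epithelial cell adhesion molecule of colon and other epithelia, had 0 and 3.91 in MC38 cells (0 and 4 reads) and 2185 and 2820 in skin. For both genes the MC38 libraries lay far below the skin libraries. The level in skin was 6285-fold that in MC38 for Cdh1 (95% counting interval 1127 to 248287) and 1375-fold for Epcam (537 to 5051). The reads of both genes in MC38 cells came from replicate 2. In that library 13 keratinocyte markers (the 15 without Krt10 and Sfn) summed to 41.1 normalized counts, 0.0117% of their level in skin, where Epcam stood at 0.156% of skin. In replicate 1 these markers summed to 7.70. The part of such reads in the Cdh1 and Epcam values was not tested.

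The intestinal transcription factors were at or near 0 in all samples. Cdx1 had 0 and 4.89 normalized counts in MC38 cells (0 and 5 reads), none in skin and at most 4.43 in a tumor. Cdx2, the main determinant of intestinal fate, had no read in MC38 cells or skin, and a single read in 1 of 12 tumors, replicate 2 of the tumors labelled RAG1-/- at day 23. With 0 reads, the depth of the MC38 libraries allows up to 3 reads per library. Hnf4a, a nuclear receptor of the absorptive lineage, had a single read in MC38 replicate 1 (0.856 normalized counts) and none in MC38 replicate 2, skin or any tumor. At this depth none of the 3 was detected above the floor in both MC38 libraries.

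The markers of differentiated cells were also low. Vil1, which encodes the brush border protein villin, had 0 and 1.96 normalized counts in MC38 cells, 1.34 and 0 in skin and 0 to 5.56 in tumors. Muc2, the main secreted mucin of goblet cells, had no read in either MC38 library and 0 and 3.82 normalized counts in skin. In tumors Muc2 was at 0 to 1.34 in 10 of 12 libraries, at 20.01 (21 reads) in replicate 3 of the tumors labelled RAG1-/- at day 13 and at 12.8 (6 reads) in replicate 2 of those at day 23. Both high values thus fell in single libraries of different groups.

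The stem cell genes were low in MC38 cells and high in skin, where Lgr5 also marks hair follicle stem cells. Lgr5, a receptor for R-spondins on crypt base stem cells, had 1.71 and 4.89 normalized counts in MC38 cells (2 and 5 reads) and 630 and 614 in skin, 195-fold higher in skin (94.1 to 486). Ascl2, a transcription factor of the crypt base stem cell, had no read in MC38 cells and 45.5 and 47.2 in skin, which was at least 16.9-fold higher with the floor of 3 reads per library. Axin2 had 442 and 473 normalized counts in skin, 59.0-fold the level in MC38 cells (36.6 to 102). MC38 cells lay below skin without overlap for all 3, as they did for 51.4% of all genes tested.

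The comparison of MC38 cells with skin asked which of these genes were lower in the line. On the scale log2(normalized count + 1), limma with Benjamini-Hochberg adjustment called 3482 of 16780 tested genes higher in MC38 (20.8%) and 6920 lower (41.2%), with a median log2 difference of −0.40 over all genes. Rescaled to the same total, the split was 5004 higher and 5680 lower and the median 0.03. A gene was tested if it averaged 5 normalized counts or more. All 5 members that passed this filter were called lower. Of these, 4 (Cdh1, Epcam, Lgr5 and Ascl2) passed only through their level in skin and so had to differ, while Axin2 averaged over 5 in both groups. The other 5 were too low to test. The log2 difference was −10.97 for Cdh1 (standard error 0.44, adjusted p = 0.000145 from limma), −10.13 for Epcam (0.79, adjusted p = 0.000531 from limma), −7.28 for Lgr5 (0.46, adjusted p = 0.00031 from limma), −5.57 for Ascl2 (0.41, adjusted p = 0.000456 from limma) and −5.71 for Axin2 (0.29, adjusted p = 0.000192 from limma). With only 1 skin library in the fit the limma call was lost for Epcam (adjusted p = 0.0703 without skin replicate 1 and 0.0715 without replicate 2) and for Lgr5 (0.0502 without replicate 1). With 2 libraries against 2, the exact two-sided permutation test cannot go below p = 0.333.

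The promoters of the 3 skin-high, MC38-low members found in the RefSeq promoter table are shown because all 3 were lower in MC38 cells than in skin. Windows of 300 bases around the start site were found for 7 of the 10 genes (build GRCm38.p6, the build of mm10). They are printed 5′ to 3′ on the strand of the gene, with CACCTG or its reverse complement CAGGTG, the E-box core read by repressors of Cdh1 such as Snai1 and Zeb1, in capitals.
Epcam, chr17:87635729-87636028, plus strand: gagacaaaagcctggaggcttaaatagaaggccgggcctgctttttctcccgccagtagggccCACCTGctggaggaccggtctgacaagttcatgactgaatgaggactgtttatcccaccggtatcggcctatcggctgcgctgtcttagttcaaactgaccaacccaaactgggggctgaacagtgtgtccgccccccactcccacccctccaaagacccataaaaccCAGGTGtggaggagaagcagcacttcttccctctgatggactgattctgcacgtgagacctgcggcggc
Ascl2, chr7:142969215-142969514, minus strand: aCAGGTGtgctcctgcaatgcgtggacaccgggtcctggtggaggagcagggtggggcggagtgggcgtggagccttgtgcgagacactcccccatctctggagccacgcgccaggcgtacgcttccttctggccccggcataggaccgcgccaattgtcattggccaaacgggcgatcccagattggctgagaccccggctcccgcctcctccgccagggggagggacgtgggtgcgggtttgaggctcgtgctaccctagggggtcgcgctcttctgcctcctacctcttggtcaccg
Axin2, chr11:108920099-108920398, plus strand: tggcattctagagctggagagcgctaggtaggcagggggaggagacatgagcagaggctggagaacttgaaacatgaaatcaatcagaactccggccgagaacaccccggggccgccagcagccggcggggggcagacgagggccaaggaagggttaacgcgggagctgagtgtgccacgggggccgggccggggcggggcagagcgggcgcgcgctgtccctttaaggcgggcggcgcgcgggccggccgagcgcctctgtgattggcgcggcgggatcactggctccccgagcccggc

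Epcam held 2 matches, at −187 and −19 from the start site, Ascl2 held 1 at −249 and Axin2 held none. Of the other members with a window, which were not high in skin, Vil1 held 1 at 27 and Hnf4a 1 at −153, in only 1 of its windows. Of 32851 promoters of this length 20.2% held at least 1 match. The TCF/LEF site CTTTGAT, searched on both strands, was in none of the windows of the 7 genes and in 3.73% of all promoters. The printed windows were rich in CpG, with 31 CpG in Axin2, 23 in Ascl2 and 11 in Epcam, beside a median of 7 over all promoters. Among the other members Cdx2 had 18, while Muc2 had 6, Vil1 5 and Hnf4a 4 in each of its windows. These matches are letters in a window and were not measured as bound sites.

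The other genes of the same programs were read from 5 lists of 118 genes outside the members. Of these, 28 were above 5 normalized counts in both MC38 libraries and 77 in both skin libraries. Beside them, 26.7% of all listed genes passed this level in MC38 cells and 34.3% in skin. The share of the lists in MC38 cells was thus near that of all genes. The counts of single lists below are to be read beside the same shares.

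**Figure D2:**
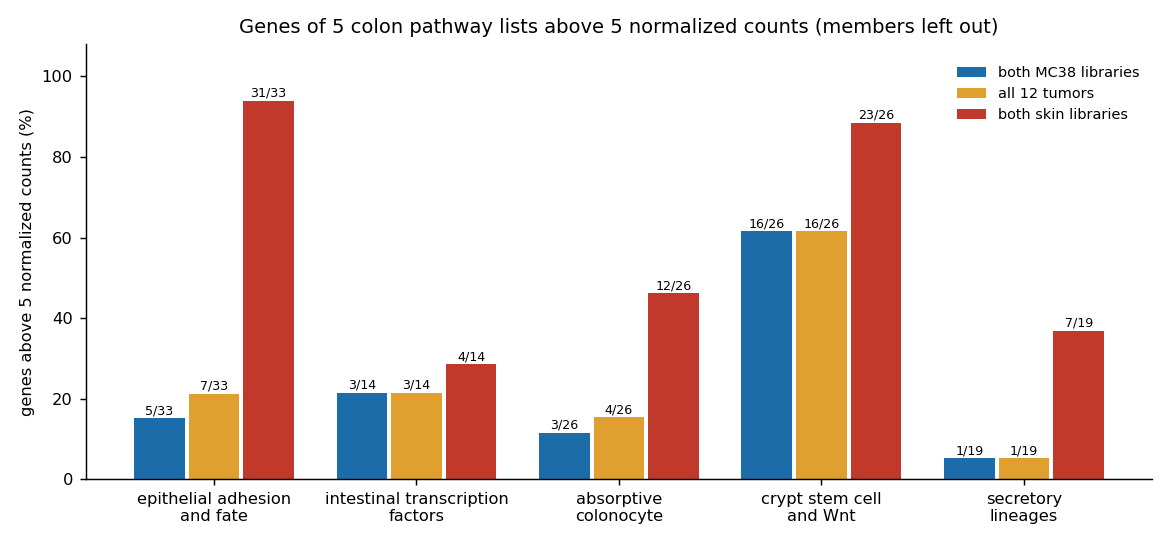
Share of genes of each of 5 colon pathway lists, members left out, above 5 normalized counts in both MC38 libraries, in all 12 tumors and in both skin libraries, with the counts over the bars. The epithelial adhesion list has 31 of 33 in skin and 5 of 33 in MC38 cells, and the crypt and Wnt list has 16 of 26 in MC38 cells.

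Most genes of epithelial adhesion and fate were lower in MC38 cells than in skin. Above 5 in both MC38 libraries were 5 of 33, against 31 of 33 in skin, and 30 of the 31 tested were called lower in MC38, 0 higher and 1 not past the threshold (median log2 difference −8.73). However, 25 of the 30 averaged under 5 in MC38 cells and passed the filter only through skin, which fixed their direction. Of the 6 that averaged 5 or more in both groups, 5 were called lower. The 5 above 5 in both MC38 libraries were Ctnnb1 and Ctnna1 (the catenins that link cadherins to actin), Ctnnd1 and Jup (further junction catenins), and the tight junction scaffold Tjp1. Ctnnb1, which is also the Wnt effector, had 5332 normalized counts on average in MC38 cells and 9382 in skin. Ctnna1 had 3221 and 3691 and did not pass the test (log2 difference −0.17, adjusted p = 0.547 from limma). Jup, which binds desmosomal cadherins, stood far lower, at 6.42 on average in MC38 cells against 2314 in skin. Among the genes with the greatest excess in skin were the desmosomal Dsp (1.96 in MC38 cells and 30528 in skin), the plakin Ppl (0 and 5062) and the epithelial splicing regulator Esrp1 (0.489 and 4774).

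Of 14 other intestinal transcription factors 3 were above 5 in both MC38 libraries, Klf4, Klf5 and Vdr, and all 4 that were tested were called lower than in skin, 1 of them (Gata6) having passed the filter only through skin. Klf4, a factor of differentiating epithelial cells, had 2018 normalized counts on average in MC38 cells and 7032 in skin. Gata6 had no read in MC38 cells and 380 normalized counts on average in skin.

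The crypt stem cell and Wnt list had the highest share of its genes in MC38 cells, with 16 of 26 above 5 in both MC38 libraries and 23 of 26 in skin. Of 24 tested, 4 were called higher in MC38, 12 lower and 8 did not pass (median log2 difference −1.40), and 7 of the 12 lower passed the filter only through skin. Those higher were Ccnd1 (5784 and 2136 on average in MC38 cells and skin), Myc (546 and 186), Cdca7 (592 and 292) and Cd44 (4839 and 3542), which are cell cycle, growth and adhesion genes known as Wnt targets. The call of Cd44 was slight (log2 difference 0.44, adjusted p = 0.0441 from limma) and was lost with a pseudocount of 0.1 (adjusted p = 0.0528 from limma). Sox9, a crypt progenitor factor, was abundant in both (2287 and 4799). Secreted and membrane proteins of the list differed among themselves. Smoc2 had 0.489 on average in MC38 cells and 2514 in skin, Tnfrsf19 0 and 1428, and Wif1 0 and 432. In contrast Lrig1 had 1607 and 1274 and Znrf3 338 and 340, neither past the threshold (adjusted p = 0.072 and 0.97 from limma), both chosen after their values were seen.

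Of 26 other absorptive colonocyte genes 3 were above 5 in both MC38 libraries, the actin-bundling and membrane linker genes Eps8, Espn and Ezr, against 12 of 26 in skin. Eps8 was called higher in MC38, at 4849 normalized counts on average against 521 in skin (log2 difference 3.23, standard error 0.18, adjusted p = 0.000224 from limma), and so was Espn, at 128 against 24.5 (2.49, standard error 0.52, adjusted p = 0.0114 from limma). Both are microvillus and stereocilium proteins. In all, 2 of 11 tested were called higher, 7 lower (6 of them having passed the filter only through skin) and 2 did not pass. Car2, a carbonic anhydrase, had no read in MC38 cells and 223 normalized counts on average in skin. Of 19 other secretory lineage genes 1 was above 5 in both MC38 libraries, the tuft cell gene Dclk1, at 962 on average against 1085 in skin (adjusted p = 0.341 from limma), and 6 of 7 tested were called lower, all 6 having passed the filter only through skin. Fcgbp, a goblet cell mucus protein, had 7781 on average in skin and 2.93 in MC38 cells. With 1 MC38 or skin library left out, limma calls against skin were also lost for Cdca7, Cd44, Myc, Espn, Dsp and Fcgbp (adjusted p up to 0.306 from limma, for Cd44).

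**Figure D3:**
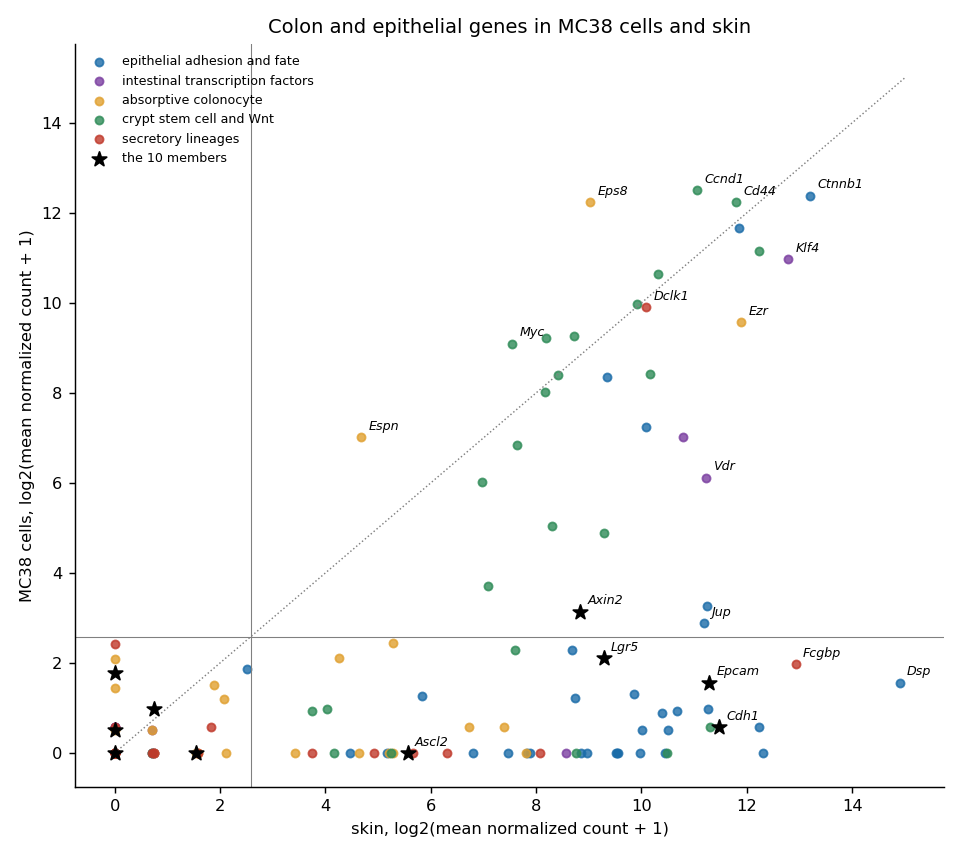
Mean level of the genes of the 5 lists and of the 10 members (stars) in 2 skin libraries (x) and 2 MC38 libraries (y), both as log2(mean normalized count + 1), with lines at 5 normalized counts and a dotted diagonal of equal levels. Eps8, Espn, Ccnd1, Cd44 and Myc lie above the diagonal, and Cdh1, Epcam, Dsp and Fcgbp lie along the bottom at the right.

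Tumors grown from the line held more Cdh1 and Axin2 RNA than the cultured cells. Cdh1 had 12.8, 11.1 and 17.1 normalized counts in tumors labelled RAG1-/- at day 13, 45.8, 17.0 and 18.6 in those at day 23, 13.3, 18.8 and 7.92 in wild-type tumors at day 23 and 22.5, 50.4 and 17.6 in those at day 46. All 12 tumors thus lay above both MC38 libraries. Axin2 had 24.6, 25.6 and 31.4 in tumors labelled RAG1-/- at day 13, 13.1, 14.9 and 43.3 in those at day 23, 30.2, 29.8 and 103 in wild-type tumors at day 23 and 23.5, 26.2 and 53.4 in those at day 46. Again all 12 tumors lay above the MC38 libraries, with wild-type replicate 3 of day 23 highest.

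In limma, which called 2679 of 14708 genes higher in tumors (18.2%) and 1387 lower (9.43%), Cdh1 rose by a log2 difference of 3.79 (0.53 standard error, adjusted p = 2.41e-05 from limma) and Axin2 by 1.82 (0.50, adjusted p = 0.0115 from limma). Cdh1 passed the filter of 5 only through the tumors, so that its call was in part fixed by the filter. With no filter, its adjusted p was 0.000243 from limma. Rescaled to the same upper quartile the split was 2965 higher and 687 lower. From the reads, the tumor level was 4.56-fold that in MC38 cells for Axin2 (95% counting interval 2.82 to 7.90) and 47.5-fold for Cdh1, where the interval of 8.47 to 1884 reflects the single MC38 read. With either MC38 library left out the call of Axin2 was lost (adjusted p = 0.137 without MC38 replicate 1 and 0.0774 without replicate 2, from limma). The exact two-sided permutation test gave p = 0.022 for both genes, the smallest that 12 against 2 allows. All tumors lay above all MC38 cells for 16.1% of the genes tested. In bulk tissue, fewer cells of a type and less RNA per cell cannot be told apart.

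Lgr5 was at 0 to 29.5 normalized counts in the tumors and did not pass the test against MC38 cells (log2 difference 0.53, standard error 0.66, 95% interval −0.87 to 1.92, adjusted p = 0.609 from limma). Epcam had 0 to 10.5 in tumors and 0 and 3.91 in MC38 cells, so the groups overlapped, and it was too low to test. The same held for Cdx1, Vil1 and Ascl2, with at most 4.43, 5.56 and 6.38 normalized counts in a tumor. Hnf4a had no read in any of the 12 tumors. No tumor reached 5 normalized counts of Cdx1, Cdx2 or Hnf4a.

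Against skin, the 5 members that passed the filter were all lower in the tumors, 2 of them (Epcam and Ascl2) having passed it only through their level in skin, beside 5898 of 16259 genes called lower (36.3%) and 3968 higher (24.4%). Rescaled to the same total the split was 4306 lower and 5772 higher. The log2 difference of tumors from skin was −7.18 for Cdh1, −9.55 for Epcam, −6.76 for Lgr5, −4.62 for Ascl2 and −3.88 for Axin2. Skin thus exceeded every tumor for all 5, and for 32.6% of all genes tested.

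**Figure D4:**
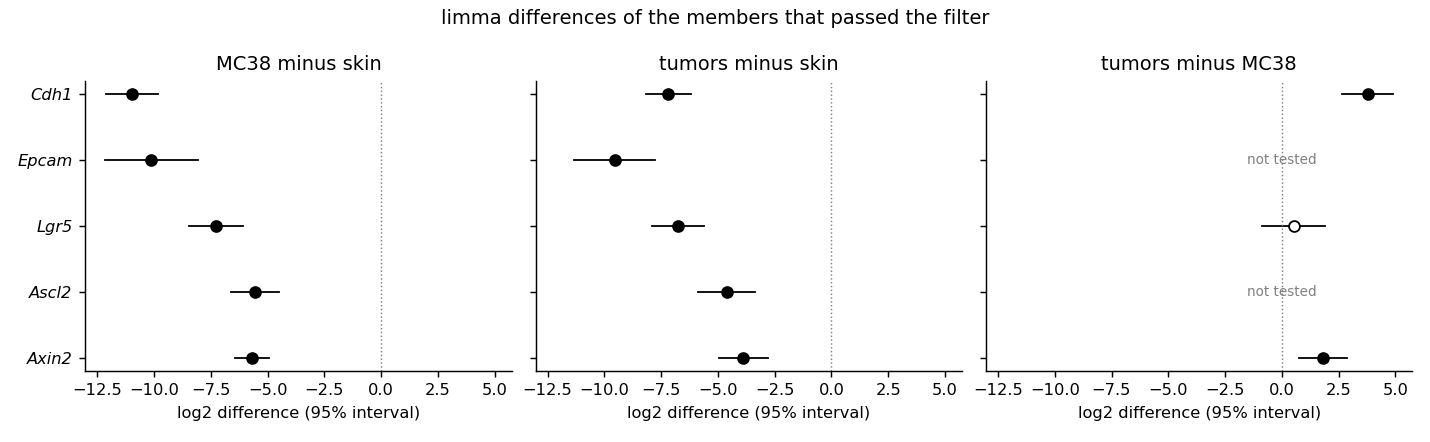
Log2 differences from limma, with 95% intervals, of the members that passed the filter, for MC38 cells against skin, tumors against skin and tumors against MC38 cells. Filled points have an adjusted p under 0.05. The first and second panels lie wholly below 0, and in the last panel Cdh1 and Axin2 lie above 0 while the interval of Lgr5 spans it.

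Tumors under the skin can hold RNA of the mouse as well as of the line, so the markers of other cells were set beside these rises. Leukocyte markers summed to 13196 to 25950 normalized counts in tumors against 9.41 to 20.5 in MC38 cells, endothelial markers to 458 to 1256 against 9.41 to 13.7, fibroblast markers to 13936 to 50146 against 5302 to 5949, and markers of dendritic and Langerhans cells to 363 to 1230 against 62.6 to 77.9. Of these lists 10 of 11, 7 of 7, 8 of 10 and 3 of 4 tested genes were called higher in tumors, beside 18.2% of all genes tested. Most of the leukocyte, endothelial and dendritic genes called averaged under 5 in MC38 cells. These passed the filter only through the tumors, which fixed their direction. The line itself held part of the fibroblast list, with 6 of 10 markers above 5 in both MC38 libraries (Col1a2, Col3a1, Dcn, Dpt, Pdgfra and Pdgfrb). Skeletal muscle markers summed to 42.0 to 8859 in tumors against 44.5 to 58.7 in MC38 cells. Of these 2 of 7 were called higher (Actn3 and Tnnt3), both averaging under 5 in MC38 cells. Cdh1 and Epcam are also made by Langerhans cells of the skin, whose defining marker Cd207 was at 0.977 to 15.8 in tumors and 0 in MC38 cells. Of 9 keratinocyte markers tested 0 were called higher, and 3 of 15 were above 5 in all 12 tumors. Their log2 differences ran from −0.76 for Sfn (95% interval −1.59 to 0.08) to 2.58 for Klk7 (0.34 to 4.82). With such wide intervals, the lack of a call does not show a lack of change. The 13 markers without Krt10 and Sfn summed to 17.8 to 1178 in tumors, against 7.70 and 41.1 in MC38 cells.

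As a share of the skin level, Cdh1 in the tumors was at 0.277% to 1.76% (median 0.608%) and Axin2 at 2.86% to 22.5% (median 6.12%). The 13 keratinocyte markers without Krt10 and Sfn were at 0.00508% to 0.337% (median 0.0144%), and between 0 and 10 of the 13 were at 0 reads in a tumor. Krt14, Krt5 and Krt1 define basal and suprabasal keratinocytes, and Krt1 had no read in 11 of 12 tumors. In each of the 12 tumors the share of Cdh1 was above that of the keratinocyte markers, which were highest in wild-type replicate 2 of day 23. The part of the other cell types in the rise of Cdh1 and Axin2 was not tested.

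**Figure D5:**
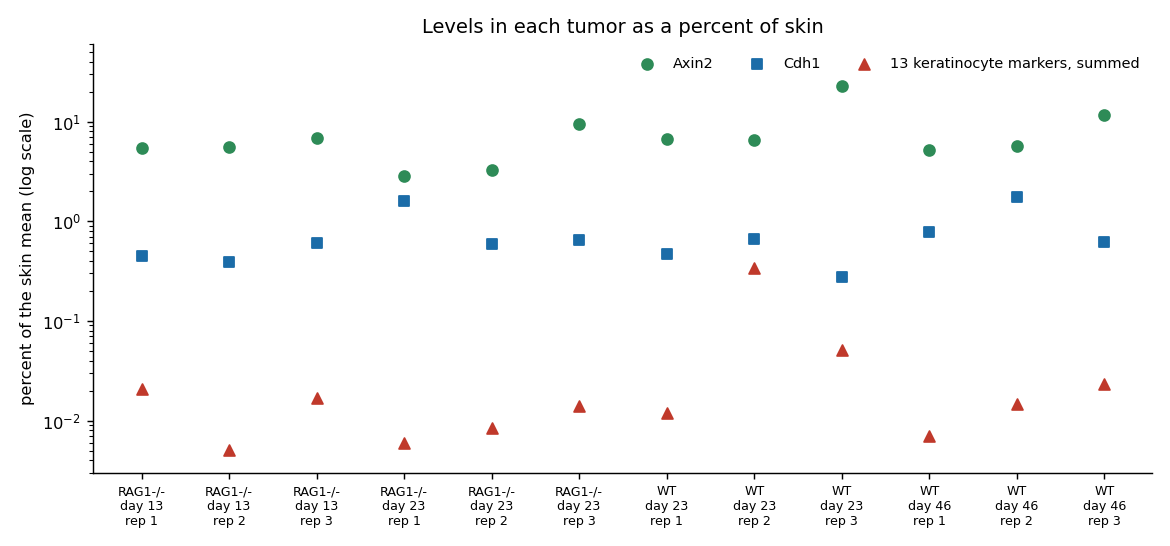
Axin2, Cdh1 and the sum of 13 keratinocyte markers in each of 12 tumors as a percent of their mean in skin, on a log axis. Cdh1 lies between 0.277% and 1.76% and the keratinocyte markers between 0.00508% and 0.337%, below Cdh1 in every tumor.

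Across the 12 tumors, the levels of Cdh1 and Axin2 had no relation to the summed keratinocyte markers on the log2 scale that passed a test (Pearson's r = −0.18, permutation p = 0.556, and Spearman's rho = −0.32, permutation p = 0.31, for Cdh1, and r = 0.23, p = 0.387, and rho = 0.18, p = 0.571, for Axin2). For Lgr5 the relation was negative, with r = −0.73 (permutation p = 0.00404, 0.0121 after adjustment over 3 relations) and rho = −0.71 (permutation p = 0.0135, adjusted 0.0404). These permutations ignored the 4 groups. The sum was over all 15 markers, Krt10 and Sfn included. It was 400 to 446 in MC38 cells, beside a tumor median of 486, so it is no measure of skin cells alone. The 13 markers without Krt10 and Sfn had a tumor median of 50.3, and a relation to them was not tested. The relation lay in wild-type tumors, where r was −0.82 over 6 libraries, against −0.05 over the 6 labelled RAG1-/-. In wild-type tumors both measures differed between the days without overlap, the sums of all 15 markers being 493 to 2378 at day 23 and 304 to 491 at day 46. Sums of the 13 markers overlapped between these days. With the group means subtracted r was −0.51 and did not pass (exact permutation within groups, p = 0.211, adjusted 0.632), a test chosen after the values were seen. Without the 2 libraries with marker sums farthest from the median, wild-type replicates 2 and 3 of day 23, r was −0.50 over 10 tumors. For the same omission r was −0.14 for Cdh1 and −0.03 for Axin2.

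Some genes of the adhesion and fate list were higher in the tumors than in MC38 cells, as Cdh1 was. Most genes of that list, 22 of 33, averaged under 5 over MC38 cells and tumors and were not tested. Among these, Cldn4, Cldn7, Crb3 and Ap1m2 had 0 or 1 read in every tumor, while St14 had 0 to 16 reads. The 5 genes were picked after their values were seen. Of 11 tested genes of epithelial adhesion and fate 5 were called higher than in MC38 cells, 0 lower and 6 did not pass. Of the 5 called higher, 3 (Spint1, F11r and Lsr) averaged under 5 in MC38 cells and passed the filter only through the tumors. Among the 6 genes that averaged 5 or more in both groups, 2 were called higher and 4 did not pass. Spint1, an inhibitor of membrane serine proteases, had no read in MC38 cells and 190 to 425 normalized counts in every tumor. F11r, a junctional adhesion molecule, had 0.856 and 0 in MC38 cells and 104 to 253 in tumors. These 2 stood well above Cdh1 in level and in log2 difference (8.15 for Spint1 and 7.11 for F11r). F11r is also known from platelets, leukocytes and endothelium. The part of other cell types in the rises of this list was not tested. Lsr rose from 0.428 to 11.1 on average (log2 difference 3.03, adjusted p = 0.00071 from limma) and Jup from 6.42 to 30.6 (1.93, adjusted p = 0.00536 from limma).

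Of 26 genes of the absorptive list 18 were too low to test. Among the 8 tested 4 rose and 1 fell, and all 4 that rose passed the filter only through the tumors. The part of other cell types in these 4 rises was not tested. Those that rose were Car2 (0 in MC38 cells and 15.5 on average in tumors), Ceacam1 (0 and 12.3), Anpep (0.489 and 10.4) and Pls1 (3.30 and 23.8), and Eps8 fell from 4849 to 2628 (log2 difference −0.90, adjusted p = 0.000271 from limma). Of the crypt and Wnt list 3 of 17 rose, Smoc2 having passed the filter only through the tumors, and 1 fell. Smoc2 rose from 0.489 to 122 (log2 difference 5.72, adjusted p = 2.72e-05 from limma) and varied from 17.0 to 380 between tumors, Cd44 rose by 0.54 and Ccnd1 by 0.49 on the log2 scale, and Apc, which encodes the scaffold that degrades β-catenin, fell from 1004 to 638 (log2 difference −0.67, adjusted p = 0.00655 from limma). The calls of Cd44, Ccnd1 and Apc were lost when an MC38 library was left out (highest adjusted p 0.301, 0.303 and 0.12 from limma). Dclk1, the 1 secretory gene tested, rose from 962 to 1761 (log2 difference 0.80, adjusted p = 0.0212 from limma), a call that was lost without either MC38 library, as were those of Jup, Anpep and Pls1 without MC38 replicate 1 (adjusted p = 0.0782, 0.148 and 0.102 from limma).

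The comparison of wild-type with RAG1-/- labelled tumors asked whether these genes changed with adaptive immunity, at both days together. Limma called 84 of 14746 genes higher (0.570%) and 21 lower (0.142%) in wild-type tumors, and no member among them. Axin2 averaged 44.3 normalized counts in wild-type tumors and 25.5 in those labelled RAG1-/-, a log2 difference of 0.67 (95% interval −0.15 to 1.503, adjusted p = 0.55 from limma) with overlapping groups. The difference was 0.03 for Cdh1 (−0.78 to 0.83, adjusted p = 0.988 from limma) and −0.01 for Lgr5 (−1.08 to 1.07, adjusted p = 0.997 from limma). Days of harvest differed between the genotypes, so day 23, which both had, was also compared alone, where limma called 34 genes higher (0.231%) and 7 lower (0.0475%). There Axin2 differed by 1.11 (−0.06 to 2.28, adjusted p = 0.48 from limma), Cdh1 by −0.90 (−2.04 to 0.23, adjusted p = 0.564 from limma) and Lgr5 by −1.25 (−2.77 to 0.27, adjusted p = 0.549 from limma). All 3 wild-type tumors lay below all 3 labelled RAG1-/- for Lgr5, as for 7.62% of genes tested.

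Among the 3 members tested, Lgr5 had the largest log2 difference between the days of wild-type tumors, though not past the threshold. It had 1.48, 0 and 1.58 normalized counts at day 23 (2, 0 and 1 reads) and 14.7, 29.5 and 10.7 at day 46 (15, 44 and 17 reads). The days did not overlap, which was so, with day 46 above, for 7.02% of genes tested. The log2 difference was 3.26 (standard error 0.71, 95% interval 1.74 to 4.77), with p = 0.000351 before adjustment and adjusted p = 0.385 from limma, and the exact permutation test gave p = 0.1, the smallest that 3 against 3 allows. It thus failed the correction over all genes, as did every gene of this comparison: limma called 0, with 1261 at an unadjusted p under 0.05, edgeR also called 0, with 1314 at an unadjusted p under 0.05, and DESeq2 called 26 higher and 17 lower, no member among them.

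In tumors labelled RAG1-/- Lgr5 had 5.35, 4.45 and 11.4 normalized counts at day 13 and 2.62, 6.38 and 2.21 at day 23, which overlapped (log2 difference −0.78, 95% interval −2.29 to 0.74, adjusted p = 0.719 from limma). The day effects of the genotypes, over different days, differed by 4.03 (standard error 1.01, 95% interval 1.89 to 6.18, adjusted p = 0.393 from limma), a test chosen after the values were seen. Ascl2, the other stem cell gene, had 0.738, 0.852 and 0 normalized counts in wild-type tumors at day 23 and 1.95, 2.69 and 4.39 at day 46, also without overlap, but from at most 7 reads. Endothelial markers summed to 458 to 542 in wild-type tumors at day 23 and 704 to 1256 at day 46, and fibroblast markers to 19705 to 32210 and 28745 to 50146. The summed markers of dendritic and Langerhans cells were lower at day 46 without overlap, at 800 to 1230 and 582 to 733. Most of that sum was Itgax, at 958 on average at day 23 and 503 at day 46. Cd207 also had a lower mean at day 46 (8.33 and 4.24). In contrast Zbtb46 (58.4 and 80.0), Ccr7 (7.43 and 17.7) and Cd24a (12.1 and 29.2) had a higher mean at day 46, so the list did not fall as a whole. The sum of all 15 keratinocyte markers also fell without overlap, at 493 to 2378 and 304 to 491. Of these markers, Krt10 and Sfn were above 5 in MC38 cells as well. The 13 without them summed to 42.0, 1178 and 177 at day 23 and 24.4, 51.0 and 81.0 at day 46, which overlapped. The part of these cell types in the Lgr5 values was not tested.

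For Cdh1 the log2 difference between day 46 and day 23 in wild-type tumors was 1.05 (95% interval −0.09 to 2.19, adjusted p = 0.614 from limma) and for Axin2 −0.49 (−1.66 to 0.68, adjusted p = 0.84 from limma). Between day 23 and day 13 in tumors labelled RAG1-/- it was 0.81 for Cdh1 (−0.32 to 1.95, adjusted p = 0.592 from limma) and −0.38 for Axin2 (−1.56 to 0.79, adjusted p = 0.846 from limma). In that comparison limma called 0 genes, with 1722 at an unadjusted p under 0.05, edgeR also called 0, with 1704, and DESeq2 called 89 higher and 117 lower.

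Genes whose pattern was most like a member over all 16 libraries were, for Cdh1, Cds1 (r = 0.98), Mgll and Ptbp3 (both 0.97), for Epcam, Pou3f1 (0.98) and Fcgbp (0.97), for Lgr5, Hoxc8 (0.97), Ralgps2 (0.96) and Mmp3 (0.95), and for Axin2, Nuak1 (0.97), Cbr1 and Chmp2a (both 0.96). These correlations on the log2 scale share the contrast of 2 skin libraries with the other 14. Within the 12 tumors the most alike were Rexo1 (0.85), Zfp704 and Wwp1 (both 0.84) for Cdh1, and Rit1 and Arvcf (both 0.88) and Spty2d1 (0.87) for Axin2, out of 12069 genes searched. The points share library depth, and no p is given.

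The 2 tumors with more than 3 reads of Muc2 also held other transcripts of the colon lining. Zg16, a lectin of goblet cells, was at 61.0 normalized counts (64 reads) in replicate 3 of the tumors labelled RAG1-/- at day 13, 4.26 in replicate 2 of those at day 23 and at most 2.14 in each other library. Car1, a carbonic anhydrase of colonocytes, was at 12.4 and 31.9 in these 2 libraries (13 and 15 reads) and had no read in the other 14. Muc13, a membrane mucin, was at 19.1 and 17.0 (20 and 8 reads) and at most 5.10 elsewhere. Zg16, Car1 and Muc13 were picked for these values among the genes of the lists, after the values were seen.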

How the data were processed

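RNA was sequenced by the authors as QuantSeq 3′ libraries on an Ion Proton, trimmed with Cutadapt and Trimmomatic, aligned to mm10 with STAR and then Bowtie2, filtered for primary alignments and ribosomal RNA, counted with HTSeq-count and divided by DESeq2 size factors. Versions, annotation and strand setting are not given in the sources used here. These normalized counts are the deposited signal. Without a known strand setting, reads of Axin2 and of Vil1 cannot be told from those of the antisense overlaps Gm11670 (3.80% of exonic bases of Axin2) and Usp37 (1.38% of Vil1).

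In each of the 16 libraries 100% of values were whole multiples, within 1e-06, of the smallest value above 0, so whole reads were recovered. Chi-square per degree of freedom between replicates was 8.42 to 87.2, so none were copies. The table of the 6 anti-PD-L1 and IgG2b tumors was not used here, because its column names match no label.

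The main test was limma 3.58.1 (R 4.3.3), with trend, on log2(normalized count + 1), applied to genes averaging 5 or more, with two-sided p-values adjusted by Benjamini-Hochberg and called under 0.05. A difference on this scale understates the change of low genes. Tumors were compared in 1 fit of 4 groups. edgeR 4.0.16 and DESeq2 1.42.0 on the recovered reads were alternatives, as were pseudocounts of 0.1 and 5, no filter, a mean of at least 20, upper quartile or total scaling, a constant spread in place of the trend, a block for the replicate number, all 16 libraries in 1 fit and each replicate left out. The tests were checked on simulated reads. Folds from reads have 95% exact binomial intervals for counting error, correlations 100000 permutations. Single genes were also compared with exact permutation tests over samples (scipy).

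Named genes were the members, up to 4 per pathway list by level in MC38 or skin and by difference past the threshold in each direction, the 3 genes most alike each member with a mean of at least 20, and marker genes. Genes outside this rule are said to be chosen after their values were seen. Some genes are not reported here and were left out of the lists and their counts. The members and lists were chosen with earlier results of these data known.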

Additional observations from a re-analysis of the deposited data

How the results depend on the processing

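The comparisons with skin kept their direction for all 5 tested members under every alternative run. However, 4 of the 5 in MC38 cells and 2 of the 5 in tumors passed the filter only through skin, which fixed their direction. Past the threshold were 5 members in MC38 cells against skin, and 3 to 5 with 1 library left out, the lowest count without skin replicate 1, where Epcam and Lgr5 lost the call. Against MC38 cells 2 members were called in tumors, 1 to 2 with 1 library left out, and 1 with a mean of at least 20, because Cdh1 then fell under the filter. The number of members above the level in MC38 cells was 1, 2 at a level of 1 normalized count and 0 at 10. Genes called in MC38 cells against skin, with 1 library left out, were 1827 to 2338 higher and 4031 to 5542 lower, and in tumors against MC38 cells 1678 to 2853 higher and 414 to 1585 lower, with 687 lower after upper quartile scaling. The lowest of these counts of tumors came without MC38 replicate 2.

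In wild-type tumors against those labelled RAG1-/- no member was called under any alternative run. The calls of genes were 41 higher and 7 lower without trend, 195 and 90 with DESeq2, and 9 lower without filter and 12 after upper quartile scaling, and 57 to 140 higher and 7 to 34 lower with 1 library left out. At day 23 the calls were 18 higher and 4 lower without filter, 12 and 3 without trend, 158 and 81 with DESeq2, 17 higher with edgeR and 4 lower after upper quartile scaling, and 4 to 67 higher and 1 to 22 lower with 1 library left out. Lgr5 changed sign in the comparison of both days, to 0.196 with a pseudocount of 5 and 0.0468 after upper quartile scaling, with −0.2035 to 0.2155 when 1 library was left out, and Cdh1 ranged from −0.1886 to 0.2475. Against MC38 cells Lgr5 ranged from −0.0333 to 1.0856, the lowest without MC38 replicate 1. Between the days of wild-type tumors 1 gene was higher after upper quartile scaling, 26 were higher and 17 lower with DESeq2, 0 to 5 higher and 0 to 2 lower with 1 library left out, and Axin2 ranged from −0.849 to 0.0912. Between the days of tumors labelled RAG1-/- DESeq2 called 89 higher and 117 lower, and leaving out 1 library gave 0 to 3 and 0 to 35. The Pearson correlation of Lgr5 with the keratinocyte markers ranged from −0.7824 to −0.5953 with 1 tumor left out and was −0.5953, no longer past the threshold, without wild-type replicate 2 of day 23. With group means subtracted, a setting chosen after seeing the data, it was −0.5056 for Lgr5, also no longer past the threshold, and changed sign to 0.295 for Cdh1 and −0.0853 for Axin2. The cause of these changes was not tested.

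Same-numbered tumors came from different mice, and of 18 pairs 4 had a correlation of deviations over 0.1 (−0.217 to 0.194), so the numbers were not taken to pair the samples. With the replicate number as a block no call of a member changed, 3592 genes were higher and 7079 lower in MC38 cells than in skin, where the deviations of same-numbered libraries had a correlation of −0.00669, and 2534 were higher and 1288 lower in tumors than in MC38 cells. The blocked fit of wild-type tumors against those labelled RAG1-/- gave 89 higher and 20 lower. With 3 reads as the floor, levels under 1.33 to 6.38 normalized counts could not be told from 0.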

Other observations

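Of 21 absorptive and secretory genes with at most 3 reads in every MC38 and skin library, 6 were above 3 reads in replicate 3 of the tumors labelled RAG1-/- at day 13 (Aqp8, Car1, Cdhr2, Muc2, Tff3 and Zg16, with 125.7 normalized counts summed over the 21) and 3 in replicate 2 of those at day 23 (Car1, Cdhr5 and Muc2, 68.1 summed). In the other tumors 0 to 2 were, at 34.95 summed in wild-type replicate 2 of day 23, 15.7 in replicate 1 of the tumors labelled RAG1-/- at day 23 and at most 11.1 elsewhere. This count was chosen after the values were seen.

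Further intestinal transcripts, also picked after their values were seen, differed in part between these libraries. At day 13 replicate 3 held the membrane mucin Muc3 at 33.3 normalized counts (35 reads), the Paneth and goblet cell ribonuclease Ang4 at 15.2 (16 reads), the goblet cell gene Clca1 at 15.2 and the carbonic anhydrase Car4 at 23.8. However, Clca1 was higher in skin, at 20.1 and 38.2, and Car4 was at 9.38 and 10.2 there. At day 23 replicate 2 held the antimicrobial lectin Reg3b at 46.8 (22 reads), the apolipoprotein Apoa1 at 23.4 (11 reads) and the immunoglobulin receptor Pigr at 17.0 (8 reads). Reg3b was at 0.953 in the first of these libraries and Apoa1 at 0, and Muc3 and Ang4 were at 2.13 and 0 in the second. Pigr and Clca1 were in both, with Pigr at 6.67 (7 reads) in the first and Clca1 at 6.38 in the second. Pigr was at 2.68 and 8.92 in skin. In the same first library skeletal muscle markers summed to 8859 normalized counts, beside 8558 in replicate 1 of that group, where Muc2 had no read.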
